A study of Mus musculus with 2 samples.

Results

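In the spinal cord library made 5 days after lysolecithin injury, 113 of 577 cells (19.6%, exact 95% interval 16.4 to 23.1%) had P2ry12 at 0.2% or more of their UMIs together with Spp1 below 0.5%. These P2ry12-high injured cells were taken by that rule from barcodes with 200 or more genes detected and no more than 10% mitochondrial UMIs, and they are 113 of the 1272 such cells in both libraries. A UMI, or unique molecular identifier, tags 1 captured RNA molecule. Because P2ry12 and Spp1 chose the cells, their levels are given as a description. Both genes are left out of the counts and medians below, except that P2ry12 is in the microglial marker sum.

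Microglia are the resident macrophages of the central nervous system. P2RY12 is a receptor for ADP through which their processes sense nucleotides released by damaged cells, and it marks microglia in undisturbed tissue. In injured or demyelinated tissue, microglia are known to lose P2RY12, TMEM119 and related transcripts and to take up a lipid-handling and phagocytic programme that includes Apoe, Lpl and Spp1.

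Single tdTomato-positive cells had been sorted from spinal cords of C57BL/6J-background mice of the strain Cx3cr1-CreER::Rosa26-tdTomato, which carry a tamoxifen-dependent recombinase under Cx3cr1 and, after recombination, the red fluorescent protein tdTomato. All mice had received 2 injections of 1 mg 4-hydroxytamoxifen in postnatal week 4, and 4 more weeks passed before dissection. The uninjured library came from age-matched mice and the injured library from cord 5 days after lysolecithin, a lipid that strips myelin. There was 1 library for each state, and the labels give neither the number nor the sex of the animals.

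Cx3cr1 also drives the recombinase in border macrophages and monocytes, so the tdTomato sort alone does not select microglia. With 1 library for each state, no difference here has a replicate check, no test was made, and injury, library and animal cannot be told apart between the libraries. Intervals are exact 95% intervals that cover counting error only. UMIs were summed over the cells of a group and given as CPM, the count per 1000000 UMIs of that group, and ratios are on the log2 scale unless a fold is named.

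The P2ry12-high injured cells held 398939 UMIs, with a median of 3335 per cell (1324 to 6980) and 1372 genes. The other 464 injured cells had a median of 4966.5 UMIs and 1648.5 genes. The 514 uninjured cells with P2ry12 at 0.2% or more, of 695 uninjured cells, had medians of 2954.5 UMIs and 1272.5 genes. With each cell thinned to 1500 UMIs, the medians were 772, 743.5 and 778 genes in the same order of groups. Thinning left out 2, 8 and 68 shallower cells. The libraries shared 0 barcodes.

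The injured library held cells with UMIs of Xist, transcribed in female cells, and cells with UMIs of Y-linked genes, whereas the uninjured library held nearly none of the first kind. Of injured cells with Xist UMIs alone, 41 of 213 (19.2%) were P2ry12-high, as were 28 of 147 (19.0%) of those with Y-linked UMIs alone and 41 of 200 (20.5%) of those with neither. The 3 shares lie within each other's intervals. Among uninjured cells, 6 had Xist UMIs alone and 235 Y-linked UMIs alone. Xist was at 441 CPM in the P2ry12-high injured cells and 3.32 CPM in the uninjured P2ry12-high cells, so ratios for cells holding only Y-linked UMIs are given beside some results below. In that stratum 82 values of single genes and lists differed from those over all cells by more than their counting interval and 163 did not.

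P2ry12 (ENSMUSG00000036353, chromosome 3, 59216272 to 59262871, minus strand, GRCm38) took 0.2002% of UMIs in the lowest of the chosen cells, 0.266% in the median cell and 0.685% in the highest. This was 3 to 21 UMIs per cell with a median of 10. In the uninjured P2ry12-high cells the median was 0.377% and the highest 1.604%. Thus the chosen cells passed the same minimum but lay at the lower end of the uninjured range. Near the threshold, 46 of the 113 had P2ry12 between 0.2 and 0.25%, while 41 of the 299 injured cells low in both genes had 0.15 to 0.2%. The cell just inside had 4 P2ry12 UMIs of 1998 (0.2002%), and the cell just outside had 5 of 2524 (0.198%).

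To give P2ry12 in UMIs that the choice did not use, the UMIs of each cell were also split at random into 2 equal parts. The 111 injured cells chosen on 1 part had 3106 CPM of P2ry12 in that part and 2552 CPM (2333 to 2785) in the other. The remaining injured cells had 584 CPM (544 to 627) in the unused part. P2ry12 was therefore also higher in UMIs that did not choose the cells. The placement of single cells was not certain: 67 of the 111 (60.4%) were chosen again on the unused part. Of the 466 injured cells not chosen at first, 46 (9.87%) were chosen on the unused part. In the uninjured library the shares were 398 of 473 (84.1%) and 109 of 222 (49.1%). These shares also depend on how many cells of a library pass the threshold, so they do not rank the libraries.

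Spp1, the gene of osteopontin, was nearly exclusive with P2ry12 in these cells. Of 114 injured cells with P2ry12 at 0.2% or more, 1 had Spp1 above the limit, at 8.11% of its UMIs, and the next highest had 0.378%. This holds for the thresholds and not for detection, since UMIs of both genes were found together in many cells. P2ry12 had 0 UMIs in 33 of the 165 Spp1-high injured cells. Spp1 had 0 UMIs in 20 of the 113 chosen cells, and its sum there was 682 CPM. In 8 injured barcodes with markers of endothelial cells or oligodendrocyte precursors, which should lack Spp1, it was at 743 CPM (median depth 3258 UMIs, close to that of the chosen cells), so the level in the chosen cells was not above that of cells that should lack it. Free RNA and low expression were not separated. P2ry12 in those 8 barcodes was 32.3 CPM from 1 UMI.

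**Figure D1:**
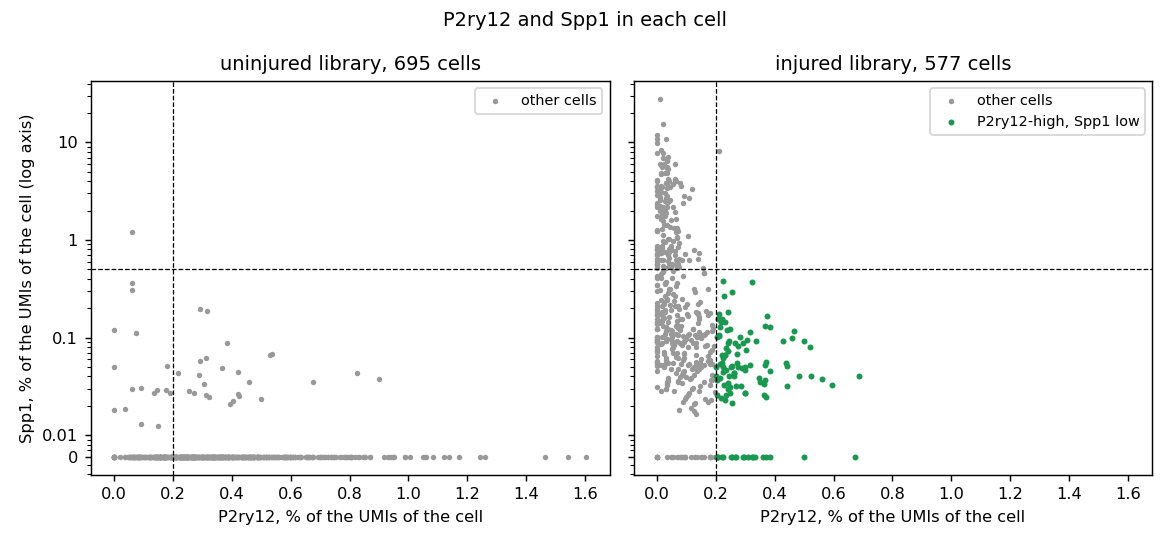
P2ry12 (x axis) and Spp1 (y axis, log scale, with cells at 0 drawn on the lowest line) as percent of the UMIs of each cell, for 695 uninjured and 577 injured cells, with dashed lines at the thresholds of 0.2% and 0.5%. The 113 chosen cells (green) fill the lower right of the injured panel, whose upper right holds 1 cell.

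The microglial label was checked against markers. All 10 microglial markers had UMIs in the P2ry12-high injured cells, for a sum of 59420 CPM. This lay between the other injured cells at 28394 CPM and the uninjured P2ry12-high cells at 107414 CPM. P2ry12, which chose the cells, is 1 of the 10, so its part in this was set by the rule. Cst3 gave 15630 of the 23705 UMIs of this sum in the P2ry12-high injured cells. Of 10 monocyte markers 6 were at 0, Ccr2 among them, and the sum was 70.2 CPM, against 271 CPM in the other injured and 19.9 CPM in the uninjured cells. Of 10 border macrophage markers 6 were at 0, including the mannose receptor gene Mrc1, with a sum of 17.5 CPM against 170 and 10.6 CPM. In the other injured cells, 1 gene gave much of each sum. Fn1 had 513 of the 730 monocyte marker UMIs there, and Ms4a7 had 232 of the 458 border macrophage marker UMIs. Fn1 is also a matrix gene named below, so the monocyte sum alone does not measure monocyte content. None of the 113 cells had UMIs of 3 or more monocyte or border macrophage markers, and 1 had 3 markers of another type (fibroblast). Among the other injured cells 9 of 464 held 3 or more monocyte markers, and 17 of 464 held 3 or more border macrophage markers. In that group 3 monocyte and 2 border macrophage markers were at 0, out of 2696572 UMIs against 398939 in the chosen cells. The other injured cells were more and deeper, so counts of cells and of markers at 0 overstate the difference. A small share of such cells among the 113 could go unseen. Over the other 14 lists the sum in the P2ry12-high injured cells was between 0 CPM (ependymal cell) and 384 CPM (Schwann cell, all of it from the 153 UMIs of Pmp22). With cells that held 3 markers of another type left out, 153 genes stood 2-fold or more above and 215 below the other injured cells, beside the 149 and 232 given next.

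Against the other injured cells, 149 of 3905 measured genes were at least 2-fold higher in the P2ry12-high cells (3.82%) and 232 at least 2-fold lower (5.94%). Of 4273 genes measured against the uninjured P2ry12-high cells, 111 lay 2-fold or more above (2.6%) and 240 below (5.62%). Over all measured genes, the median log2 ratio was 0.03 and −0.06. A gene was measured where at least 10 UMIs were expected in the smaller group, from the UMIs of both groups together. A gene with few UMIs in 1 group can therefore pass through the group where it is higher. Counts and medians of lists cover measured genes only, and this can enlarge them in either direction. For the interferon, damage-associated and lipid lists, 13, 18 and 10 genes were measured against the uninjured cells, and 22, 25 and 19 against the other injured cells. The higher and lower calls against the other injured cells depended on the scaling: TMM gave 73 higher and 348 lower and DESeq2 size factors 76 and 342, because they shift every ratio of that comparison by −0.18 and −0.17. Against uninjured cells the shifts were 0.01 and 0.02. The comparisons share the P2ry12-high injured cells, so their values are set side by side below and not related to each other.

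Genes of undisturbed microglia were at levels between the other groups. Of 23 measured genes of the homeostatic list, 9 were at least 2-fold higher than in the other injured cells and none lower, with a median of 0.93. Of 24 measured against uninjured P2ry12-high cells, 7 were at least 2-fold lower and none higher, with a median of −0.38. By cell, the list took 2.56% of UMIs in the lowest of the 113 cells, 6.54% in the median cell and 13.01% in the highest. It lay above the median of the other injured cells (3.16%) in 109 of 113 cells and above that of the uninjured cells (11.4%) in 1 of 113. Much of this share was 1 gene, Cst3, which alone took 3.82% in the median chosen cell and 7.61% in the median uninjured P2ry12-high cell. Gene by gene, 24 of the 24 ratios to the uninjured cells were below 0, mostly by less than 2-fold.

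Cst3 encodes the secreted protease inhibitor cystatin C. It took 0.756% of UMIs in the lowest, 3.82% in the median and 8.37% in the highest of the chosen cells, and 7.61% in the median uninjured P2ry12-high cell. Its sum was 39179 CPM, against 14284 CPM in the other injured and 79014 CPM in the uninjured cells, with log2 ratios of 1.46 (1.43 to 1.48) and −1.01 (−1.04 to −0.99), which were 1.26 and −1.15 in the Y-linked stratum. A level of 5% or more was found in 34 of 113 chosen cells, 34 of 464 other injured cells and 446 of 514 uninjured cells.

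Tmem119, a microglial membrane protein gene, was at 1359 CPM (1247 to 1478), against 646 CPM in the other injured and 2411 CPM in the uninjured cells. Selplg encodes a ligand of selectins and was at 1466 CPM, against 727 and 3240 CPM. Their ratios to the other injured cells, 1.07 and 1.01, stood just past 2-fold and fell under it with TMM scaling, at 0.89 and 0.83, and in the Y-linked stratum, at 0.89 for both genes. Tmem119 had no UMI in 3 of the chosen cells and Selplg none in 4. Of the 4 marker genes, Tmem119, Cst3 and Selplg thus each lay lower in the chosen cells than in the uninjured group. The other marker, P2ry12, chose the cells of both groups, so its lower median is a description only.

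The other receptors of the homeostatic list differed in how near they stood to the uninjured level. Csf1r, the receptor for the survival factors CSF1 and IL-34, was at 1614 CPM, against 845 CPM in the other injured and 2067 CPM in the uninjured cells. Siglech, a sialic acid-binding lectin gene, was at 516 CPM against 201 and 679 CPM, and the fractalkine receptor gene Cx3cr1 at 501 CPM against 334 and 682 CPM. The ADP receptor gene P2ry13 was at 218 CPM, 1.76-fold higher than in the other injured cells and 2.45-fold lower than in the uninjured cells at 535 CPM. Slc2a5, which encodes a fructose transporter, was 3.84-fold higher than in the other injured cells and 2.09-fold lower than in the uninjured cells. The lens crystallin gene Crybb1 (3.36-fold higher and 2.15-fold lower) and the adhesion receptor gene Adgrg1 (3.31-fold and 2.21-fold) followed the same order.

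Among microglial identity transcription factors, 2 of 14 measured genes were at least 2-fold higher than in the other injured cells and none lower, with a median of 0.57. Sall1, a zinc finger factor that maintains microglial identity, was at 82.7 CPM (33 UMIs), against 27.4 CPM in the other injured and 96.3 CPM in the uninjured cells. Maf was at 198 CPM against 86.8 and 234 CPM. The intervals of their ratios to the uninjured cells include 0, at −0.81 to 0.33 for Sall1 and −0.61 to 0.11 for Maf, so a difference was not detectable at this depth. Against uninjured cells 1 of 14 was at least 2-fold higher and none lower (median −0.14). The one was Tgif1, a TGF-beta-induced repressor gene, at 739 CPM against 353 CPM, and at 603 CPM in the other injured cells.

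TGF-beta signalling is required for the microglial programme. Of its 8 measured genes none was 2-fold from the other injured cells (median 0.50), and the receptor gene Tgfbr1 was at 368 CPM against 194 CPM there and 359 CPM in the uninjured cells. Of 10 genes measured against the uninjured cells 1 was lower (median −0.17). It was the ligand gene Tgfb1, with 16 UMIs and 40.1 CPM against 94.3 CPM.

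P2RY12 acts with enzymes and channels of nucleotide signalling. Of 13 other genes of that list 2 were at least 2-fold higher than in the other injured cells (median 0.28). They were Entpd1 (CD39), which breaks down ATP and ADP, at 113 CPM against 54.9 CPM, and the adenosine receptor gene Adora3, at 75.2 CPM against 37.1 CPM. Their log2 ratios of 1.04 and 1.02 lay under 2-fold with TMM scaling, at 0.86 for Entpd1 and 0.84 for Adora3, and the list's median turned sign in 4 of 18 settings. Against the uninjured cells, P2ry13 was the 1 of 13 past 2-fold (lower, median −0.19). The potassium channel gene Kcnk13, which works downstream of P2RY12, was at 92.7 CPM against 97.0 CPM in the uninjured cells and 60.8 CPM in the other injured cells.

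**Figure D2:**
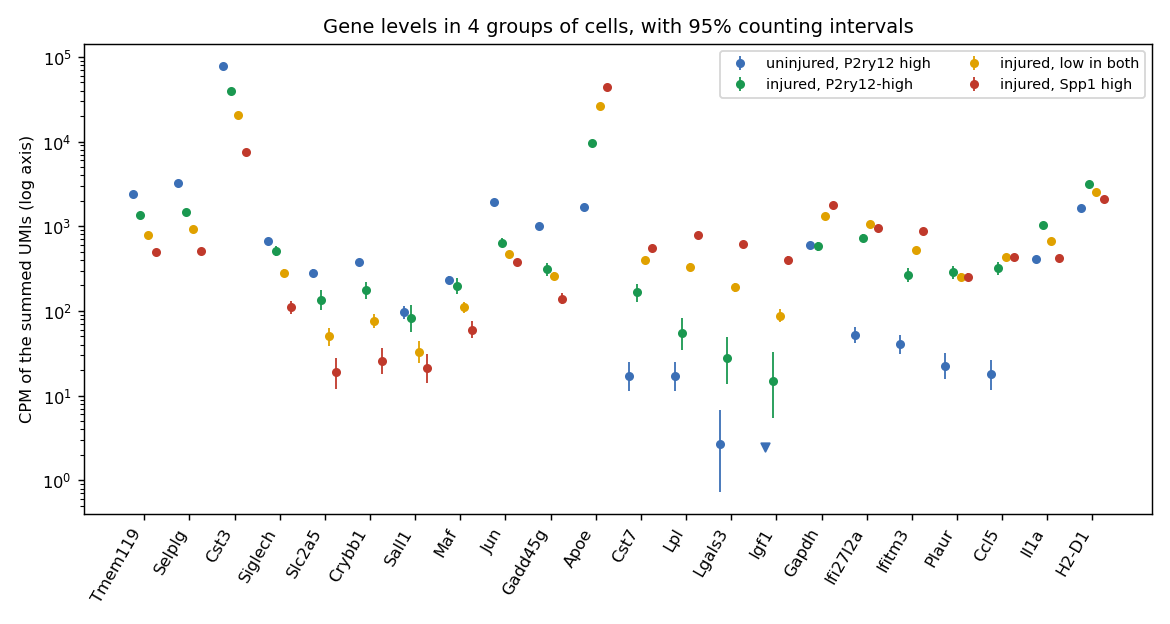
Level of 22 genes as CPM (y axis, log scale) in uninjured P2ry12-high cells, P2ry12-high injured cells, injured cells low in both P2ry12 and Spp1, and Spp1-high injured cells, with 95% counting intervals as bars and an arrowhead at the upper limit of a gene with 0 UMIs. Cst3 at 39179 CPM and Apoe at 9578 CPM in the P2ry12-high injured cells stand between the uninjured and the other injured cells.

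Genes of damage-associated microglia lay far below the other injured cells, yet several stood above the uninjured level. Of 25 measured genes 11 were at least 2-fold lower than in the other injured cells and none higher (median −0.90). Of the 27 genes of the list without Spp1, 18 were measured against the uninjured P2ry12-high cells. Of these, 6 were at least 2-fold higher and none lower (median 0.32). Here too, genes low in uninjured cells could pass the minimum only where the chosen cells had more. By cell, with all 27 genes and no minimum, the list lay under the median of the other injured cells in all but 7 of 113 cells. It lay above that of the uninjured cells in 97 of 113.

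Apoe, for the lipid carrier apolipoprotein E (chromosome 7, 19696109 to 19699188, minus strand), took 0.0362% of UMIs in the lowest of the chosen cells, 0.360% in the median and 8.38% in the highest. Its median was 1.91% in the other injured and 0.0361% in the uninjured P2ry12-high cells. Its sum of 9578 CPM was 3.59-fold lower than in the other injured cells (34416 CPM) and 5.70-fold higher than in the uninjured cells (1679 CPM). In cells with Y-linked UMIs alone the ratios were −1.12 and 3.07, beside −1.85 and 2.51 over all cells. Apoe was unevenly spread: 10 of the 113 cells held 54.6% of its UMIs, and 26 of 113 had 1% or more, against 303 of 464 and 19 of 514. The 8 injured barcodes with markers of other cell types had 1582 CPM of Apoe, and 4 such uninjured barcodes had 1594 CPM (12 UMIs), both near the 1679 CPM of the uninjured P2ry12-high cells. The part of free RNA in the difference between the libraries was not tested.

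Cst7, for the protease inhibitor cystatin F, was at 165 CPM (128 to 210), against 472 CPM in the other injured and 17.3 CPM in the uninjured cells, and 129 CPM (4 UMIs) in the 8 barcodes of other cell types. After thinning, 18 of 111 chosen cells had a Cst7 UMI, against 166 of 456 and 10 of 446 (unthinned 31 of 113, 283 of 464 and 20 of 514, and 4 of the 8 barcodes). Lpl, for lipoprotein lipase, was at 55.1 CPM (22 UMIs) against 545 and 17.3 CPM. The genes of the tetraspanin Cd63 (1146 CPM against 2416 and 437 CPM) and the protease cathepsin B, Ctsb (4637 CPM against 9325 and 2690 CPM), took the same intermediate place.

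Of the 11 lower genes of this list, 3 had few UMIs. Gpnmb, a glycoprotein gene of lipid-laden phagocytes, had 3 UMIs in all 113 cells, a log2 ratio to the other injured cells of −4.41 (−6.69 to −2.85), and 0 UMIs in the uninjured cells. The growth factor gene Igf1 had 6 UMIs (15.04 CPM against 238 CPM) and the galectin gene Lgals3 had 11 (27.6 CPM against 395 CPM). These levels were 4.70%, 6.32% and 6.99% of those in the other injured cells, compared with 27.8% for Apoe. Fabp5, a fatty acid-binding protein gene of the same list, was 8.78-fold lower than in the other injured cells, and the matrix genes Fn1 (fibronectin) and Lgals1 (galectin-1) were 8.43-fold and 7.13-fold lower.

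The lipid-handling list repeated this, with some genes shared with the damage-associated list. Of 19 measured genes 10 were at least 2-fold lower than in the other injured cells and none higher (median −1.02), and of 10 measured against the uninjured cells 4 were higher and none lower (median 0.44). Plin2, which coats lipid droplets, was at 105 CPM against 526 CPM in the other injured and 28.6 CPM in the uninjured cells. The cholesterol exporter gene Abca1 was at 82.7 CPM against 118 and 33.9 CPM. In cholesterol synthesis 0 of 4 measured genes were past 2-fold against the other injured cells (median 0.21), and 1 of 6, Dhcr7 with 4 UMIs, was lower than in the uninjured cells (median −0.49).

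Split by Spp1, the injured cells formed an order on both sides of these genes. Against the 299 cells low in both P2ry12 and Spp1, 70 of 4025 genes lay 2-fold or more above (1.74%) and 180 below (4.47%), with medians of 0.66 for homeostatic and −0.56 for damage-associated genes. Against the 165 Spp1-high cells, which were the deepest with a median of 7559 UMIs, 326 of 3855 were higher (8.46%) and 313 lower (8.12%), with medians of 1.31 and −1.20. Apoe was at 26118 CPM in the first and 43643 CPM in the second group, and Cst3 at 20360 and 7529 CPM.

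Within the injured cells with Spp1 below 0.5%, levels were also given in 5 steps of P2ry12, the last 2 holding the chosen cells (73 and 40). Cst3 was at 11450 CPM in the lowest step of 116 cells and then at 20241, 34213, 35186 and 47833 CPM. Tmem119 went from 579 CPM in the lowest to 1596 CPM in the highest step and Siglech from 165 to 516 CPM. Apoe was at 11624 CPM in the fourth and 5145 CPM in the fifth step, against 22718 CPM in the third, and Lpl at 54.9 and 55.6 CPM against 98.8 CPM. The chemokine gene Ccl4 did not follow P2ry12, at 4251, 6184, 3953, 4117 and 4287 CPM. The levels thus show no gap at the 0.2% threshold for Cst3 or Tmem119. Median depth fell along the steps, from 4537 to 3120 UMIs, and its part in them was not tested.

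**Figure D3:**
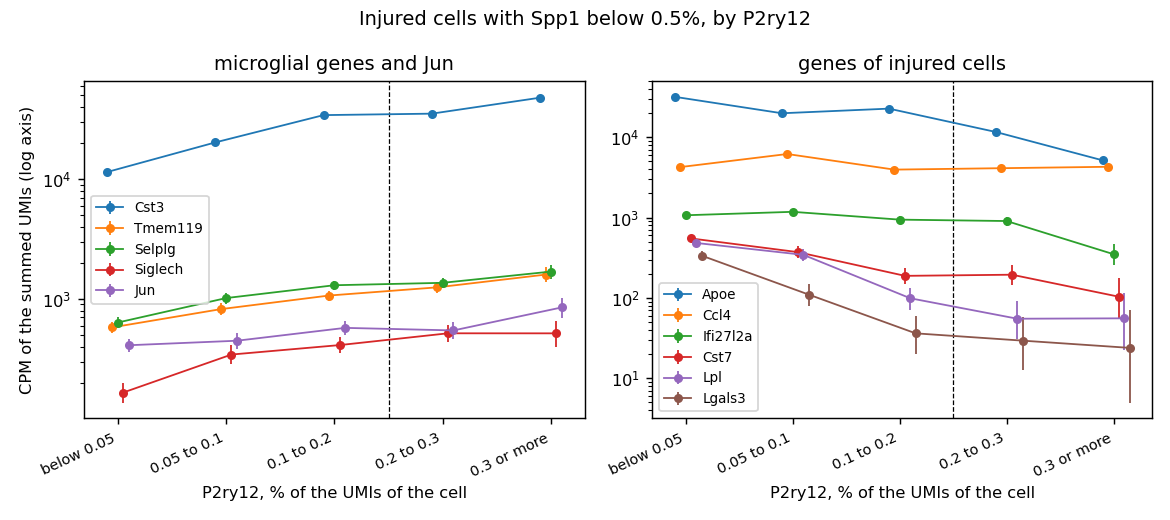
CPM (y axis, log scale) with 95% counting intervals in 5 groups of injured cells with Spp1 below 0.5%, ordered by P2ry12 as percent of the UMIs of the cell (x axis), with a dashed line at the 0.2% threshold. Cst3 was at 11450 CPM in the lowest and 47833 CPM in the highest group, whereas Ccl4 stayed between 3953 and 6184 CPM.

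Among the genes that could be measured, interferon response genes had a larger median ratio to the uninjured cells than any other list examined. Of 24 genes of the list, 13 were measured in this comparison. Of these, 10 were at least 2-fold higher than in the uninjured P2ry12-high cells and none lower, with a median of 1.58. Genes low in uninjured cells could pass the minimum only where the chosen cells had more, so both values are partly set by it. Against the other injured cells 0 of 22 were higher and 9 lower, with a median of −0.78. By cell, where all 24 genes count and no minimum applies, the list was above the uninjured median in 97 of 113 cells. It was above the other injured median in 32. In the Y-linked stratum 3 of the list's genes could be measured against uninjured cells, of which 2 were at least 2-fold higher (median 1.16).

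Ifi27l2a, an interferon-induced mitochondrial protein gene, was at 729 CPM (648 to 818), against 52.5 CPM in uninjured cells and 1015 CPM in other injured cells, a 13.9-fold difference from the uninjured cells. UMIs were found in 74 of the 113 cells, against 55 of 514 uninjured and 366 of 464 other injured cells, and after thinning in 53 of 111, 23 of 446 and 249 of 456. Within cells with Y-linked UMIs alone the log2 ratio to uninjured cells was 3.88. Against the other injured cells it was −0.48, turned to 0.32 in cells with Xist UMIs alone and was −0.76 in the Y-linked stratum. In the chosen cells with P2ry12 at 0.3% or more, Ifi27l2a was at 349 CPM, against 905 CPM in those at 0.2 to 0.3%, and with that higher threshold the ratios were −1.52 to the other injured and 2.76 to the uninjured cells. The 8 barcodes of other cell types had 129 CPM (4 UMIs in 3 of them). Ifitm3, which blocks virus entry, was at 266 CPM against 40.5 and 690 CPM, and the DNA sensor gene Ifi204 at 185 CPM against 29.2 and 231 CPM.

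Not all interferon genes were spread over the cells. Ifit3, an RNA-binding antiviral protein gene, was at 80.2 CPM against 12.6 CPM in uninjured cells and 184 CPM in other injured cells, and 9 cells held all of its 32 UMIs. Isg15, a ubiquitin-like modifier gene, was at 168 CPM (67 UMIs) against 42.5 and 245 CPM. The antiviral enzyme gene Rsad2 had 9 UMIs in 5 cells.

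Interferon-stimulated genes are known to carry a response element in their promoters, in which GAAA, 2 bases of any kind and GAAA follow each other, bound by interferon regulatory factors. This motif was chosen after the values were seen. In the 250 bases before the start of RefSeq genes (GRCm38.p6, both strands, overlapping matches counted), 8 of the 17 interferon list genes found in the table, of 24 in the list, held it, compared with 3.46% of 27025 genes. The list was made of known interferon response genes, so this share describes the list and says nothing about these cells. Of the 6 found in the table among the 10 that were at least 2-fold higher than in uninjured cells, 2 held it, Isg15 and Ifit3. Their sequences are shown because they place the element in the 2 genes described above, 5′ to 3′ on the strand of the gene, with matches in capitals (on either strand). Isg15 lies at chr4:156200819-156201068 on the minus strand and Ifit3 at chr19:34583279-34583528 on the plus strand.
Isg15: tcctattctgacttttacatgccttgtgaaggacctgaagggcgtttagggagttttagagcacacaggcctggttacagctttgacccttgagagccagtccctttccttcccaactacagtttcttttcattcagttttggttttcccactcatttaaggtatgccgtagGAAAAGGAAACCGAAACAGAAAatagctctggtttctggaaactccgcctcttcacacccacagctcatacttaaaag
Ifit3: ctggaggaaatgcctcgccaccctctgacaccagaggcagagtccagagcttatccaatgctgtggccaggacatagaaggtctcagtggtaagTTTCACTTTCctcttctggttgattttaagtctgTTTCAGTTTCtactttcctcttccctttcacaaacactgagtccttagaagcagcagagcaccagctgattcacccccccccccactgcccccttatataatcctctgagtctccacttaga
Isg15 had 3 overlapping matches, starting 78, 72 and 66 bases before the start, and Ifit3 had 2 on the opposite strand, starting 156 and 122 bases before it. A match describes letters in this window only.

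Chemokine and cytokine genes were higher than in uninjured cells for 7 of 18 measured genes and lower for 1 (median 0.72), and lower than in the other injured cells for 6 of 21 with 0 higher (median −0.45). Ccl5, which attracts T cells and monocytes, was 17.9-fold higher than in the uninjured cells (321 against 17.9 CPM), but 10 cells held 93.0% of its 128 UMIs. Its level of 437 CPM in the other injured cells gave a ratio of −0.45, which was −5.12 in the Y-linked stratum and −2.66 in the Xist stratum. Ccl7 had 90% of 60 UMIs in 10 cells and was 11.9-fold higher than in the uninjured cells. These 2 ratios rest on few cells. With P2ry12 at 0.3% or more, 1 of 11 measured genes of the list was higher and 1 lower (median 0.44).

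Ccl4, which attracts monocytes and T cells, was at 4171 CPM against 4675 CPM in the other injured and 2731 CPM in the uninjured cells, with log2 ratios of −0.16 and 0.61 (−0.29 and 0.46 in the Y-linked stratum). After thinning, 86 of 111 chosen cells had a Ccl4 UMI, against 349 of 456 and 280 of 446 (unthinned 102 of 113, 415 of 464 and 355 of 514, and 3 of the 8 barcodes of other cell types), and 28 of 113 had 0.5% or more. Il1a, for interleukin-1 alpha, stood out from the list, with 1028 CPM against 557 CPM in the other injured and 412 CPM in the uninjured cells (log2 ratios 0.88 and 1.32). Its ratio to the other injured cells was between 0.50 and 1.06 over the alternatives tried. The neutrophil attractant gene Cxcl2 was at 970 CPM against 3051 and 308 CPM.

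Among the genes furthest above the uninjured cells were some outside the interferon and cytokine lists. Plaur, the urokinase receptor gene, was at 286 CPM against 22.6 CPM in uninjured and 254 CPM in other injured cells, with UMIs in 36 cells. Cd72, a C-type lectin gene, was at 158 CPM against 13.3 and 330 CPM. From the complement list, C5ar1, the receptor for complement C5a, was at 567 CPM against 255 and 539 CPM. AI607873, an interferon-inducible family gene near Ifi204, was at 165 CPM against 8.63 and 259 CPM; near-identical family members could share its reads. After thinning, 24 of 111 chosen cells had a Plaur UMI, against 12 of 446 uninjured cells (28 of 514 unthinned) and 1 of the 8 unthinned barcodes of other cell types.

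No measured MHC gene was past 2-fold against the uninjured cells, yet most cells had more MHC class I UMIs than the median uninjured cell. The class I list took 1.18% of UMIs in the median chosen cell, 1.16% in the median other injured and 0.815% in the median uninjured P2ry12-high cell, and lay above the uninjured median in 90 of 113 cells. Of MHC class I genes 1 of 12 was at least 2-fold higher and 1 lower than in the other injured cells (median 0.12), and 0 of 10 were past 2-fold against the uninjured cells (median 0.31). H2-D1, a class I heavy chain gene, was at 3163 CPM against 2353 CPM in the other injured and 1636 CPM in the uninjured cells, with ratios of 0.43 and 0.95 (0.15 and 0.75 in the Y-linked stratum), and near-identical class I genes could share its reads. Of MHC class II genes 0 of 5 were past 2-fold in either comparison (medians 0.29 and −0.08). Cd74, the class II invariant chain gene, was at 461 CPM against 321 and 232 CPM. Of 22 complement and phagocytic receptor genes 1 was higher and 3 were lower than in the other injured cells (median 0.06), and of 19 measured against the uninjured cells 1 was higher and 1 lower (median −0.11). C1qa, for a subunit of the complement starter C1q, was at 7866 CPM against 8374 and 9514 CPM, and the lipid receptor gene Trem2 at 1925 CPM against 1816 and 2425 CPM.

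Glycolysis was the list with the largest share of genes past 2-fold against the other injured cells. Of 16 measured genes 12 were at least 2-fold lower in the P2ry12-high cells and none higher (median −1.21), whereas 0 of 16 were past 2-fold against the uninjured P2ry12-high cells (median 0.12). Gapdh, a core glycolytic enzyme gene, was at 579 CPM against 1535 CPM in the other injured and 608 CPM in the uninjured cells. Pgam1, for phosphoglycerate mutase, was at 135 CPM against 416 and 109 CPM, and the cytokine gene Mif, also in the list, at 206 CPM against 721 and 141 CPM. The ratio of Gapdh to uninjured cells had an interval of −0.29 to 0.14. By cell, 15 of 113 were above the median of the other injured cells. Nuclear genes of oxidative phosphorylation had 0 of 22 past 2-fold in either comparison, with medians of −0.40 and 0.13. Depth per cell moves with this list, since the other injured cells were deeper, and with every cell thinned to 1500 UMIs the median was −1.07 (9 of 14 lower) and with means over cells −1.001 (8 of 16 lower).

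Early response genes, which are induced during enzymatic dissociation, had the reverse order. Of 30 measured genes 4 were at least 2-fold lower than in the uninjured cells and none higher (median −0.43), and of 29 measured against the other injured cells 1 was higher and none lower (median 0.38). In the Y-linked stratum 8 of 26 were lower and 1 higher. Jun was at 642 CPM against 1915 CPM in uninjured cells and 424 CPM in other injured cells, with ratios of −1.58 and 0.60 (−1.33 and 0.94 in the Y-linked stratum). Dusp1, a kinase phosphatase gene, was 2.67-fold and the cytokine signalling inhibitor gene Socs3 2.78-fold lower than in the uninjured cells. Gadd45g, a growth arrest and stress gene outside the list, was at 313 CPM against 1021 and 202 CPM. Both libraries were digested for 1 h at 37 °C, and a difference in handling between them cannot be told apart from injury. The homeostatic and early response lists were both lower than in uninjured cells, and a link between them was not tested.

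**Figure D4:**
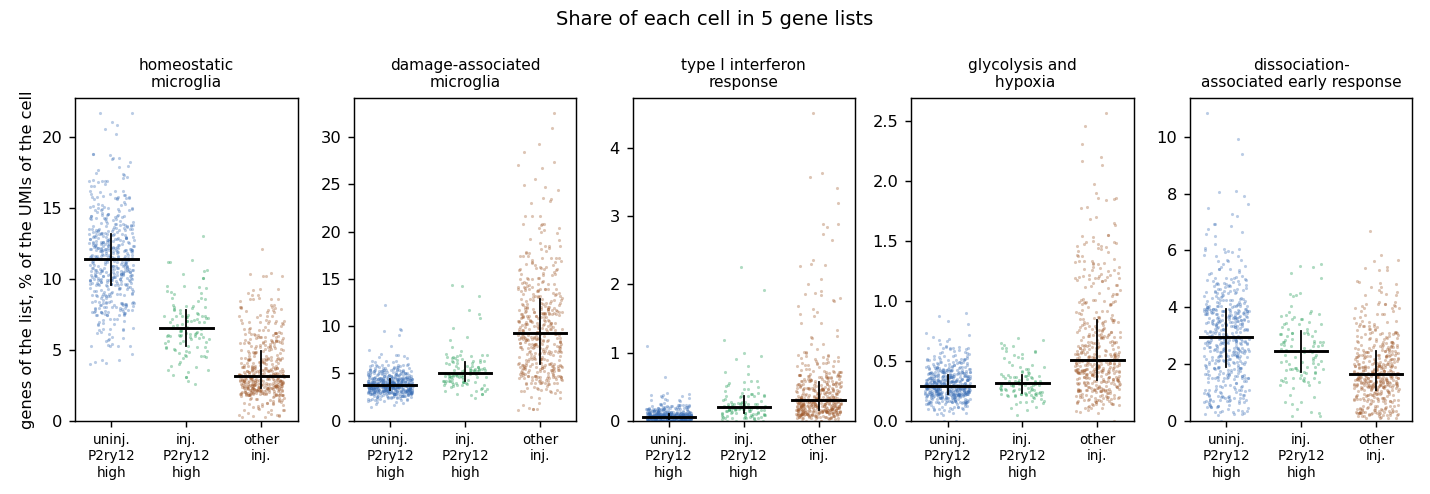
Share of the UMIs of each cell (y axis, percent) in 5 gene lists for 514 uninjured P2ry12-high cells, 113 P2ry12-high injured cells and 464 other injured cells, with each point a cell, the horizontal bar the median and the vertical bar the quartiles. P2ry12 and Spp1 are left out of the lists. The homeostatic median of 6.54% in the P2ry12-high injured cells lies between 11.4% and 3.16%.

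Cell cycle genes were lower than in the other injured cells when summed over cells, but not in the median cell. Of 8 measured G2 and M phase genes 5 were at least 2-fold lower than in the other injured cells (median −1.85), whereas with every cell thinned 0 of 3 were, with a median of 0.13. By cell, the list took 0.0614% of UMIs in the median chosen cell and 0.0507% in the median other injured cell, and 60 of 113 cells lay above the latter, with a highest value of 0.364% against 1.24%. Mki67 and Top2a, both markers of dividing cells, had 1 UMI each in the 113 cells, against 29 and 74 in the other injured cells. These counts are out of 398939 UMIs in the chosen cells and 2696572 in the other injured cells, so they overstate the difference. The mitotic gene Birc5 had 0, against 153 UMIs in the other injured cells. With the floor of 3 counts in place of 0 it was 7.55-fold lower, a value set by the floor. Against the uninjured P2ry12-high cells 0 of 3 measured genes were past 2-fold (median 0.29). In the S phase list 2 of 6 were lower than in the other injured cells (median −0.35) and 0 of 4 were past 2-fold against the uninjured cells (median −0.06).

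Against the uninjured cells 1 of 32 lysosomal genes was higher (Cd63, median 0.18), 1 of 23 cytoskeletal genes was higher and 1 lower (median 0.21), 1 of 10 oxidative stress and iron genes was higher (the metallothionein gene Mt2, median 0.35), and 0 of 4 myelin transcripts were past 2-fold (median −0.35). Against the other injured cells 0 of 2 myelin transcripts were (median 0.47). Of the 32 lysosomal genes 3 were lower and 1 higher than in the other injured cells (median −0.18), the higher one being Ctsf, for cathepsin F, at 211 CPM against 80.5 CPM there and 236 CPM in the uninjured cells. Of 24 cytoskeletal genes 2 were lower (median −0.30), among them Vim, for vimentin, with 62.7 CPM against 209 CPM. The iron exporter gene Slc40a1 was at 77.7 CPM against 24.1 CPM in the other injured and 63.8 CPM in the uninjured cells, and was the 1 of 10 oxidative stress and iron genes past 2-fold against the other injured cells (median −0.07). Of 13 growth factor and matrix genes 5 were lower and 1 higher than in the other injured cells (median −0.52), and 1 of 9, Tgfb1, was lower than in the uninjured cells (median −0.08). The higher one was Hbegf, for a ligand of the EGF receptor, at 178 CPM against 77.1 CPM and, in uninjured cells, 317 CPM.

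**Figure D5:**
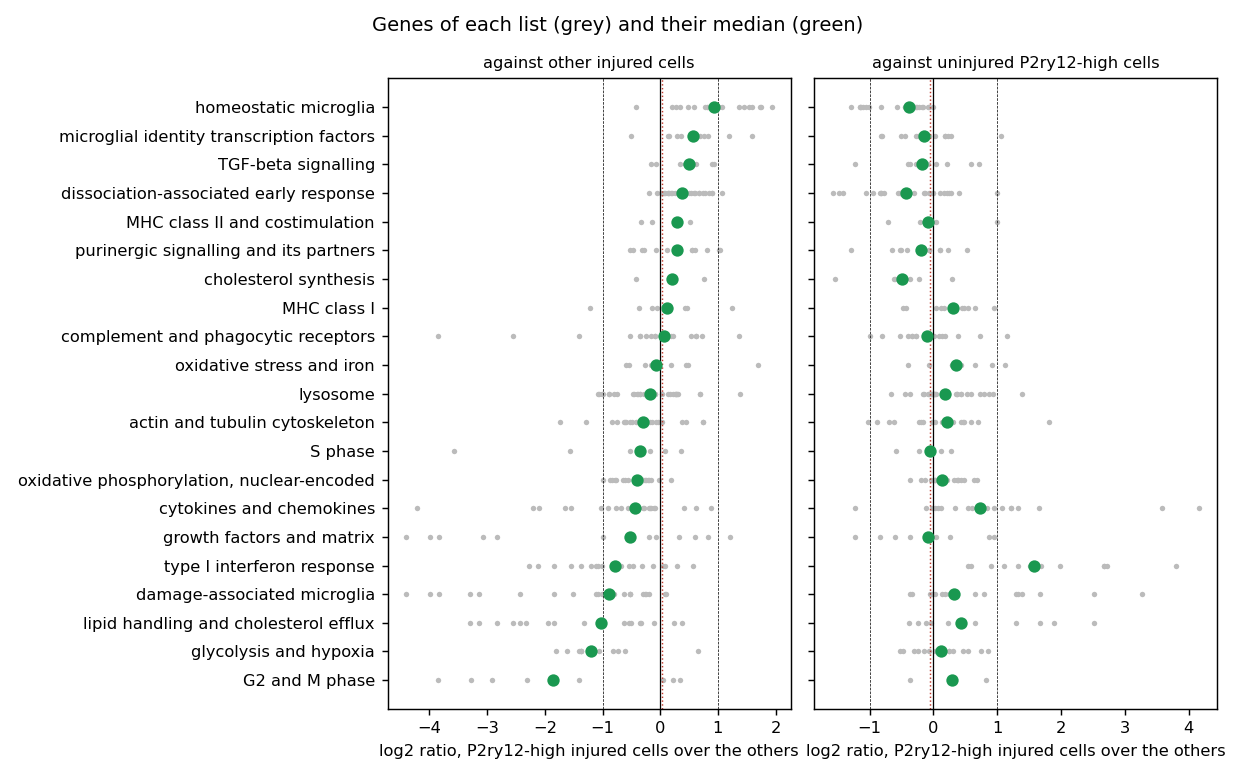
Log2 ratio (x axis) of each measured gene (grey) of 21 lists and the list median (green), for P2ry12-high injured cells over the other injured cells (left) and over uninjured P2ry12-high cells (right), with dashed lines at 2-fold and a dotted red line at the median of all measured genes. Interferon genes had a median of −0.78 on the left and 1.58 on the right, and glycolysis genes −1.21 and 0.12.

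Some genes were past 2-fold in the same direction against both groups, which are 2 comparisons that share the P2ry12-high injured cells. Tnpo3, for a nuclear import receptor, was at 549 CPM against 220 CPM in the other injured and 255 CPM in the uninjured cells. Gpr183, an oxysterol receptor gene, had 12 UMIs and was lower, at 30.1 CPM against 73.8 and 155 CPM.

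Genes that the lists did not hold were also among the largest differences. Lag3, an inhibitory receptor gene, was at 807 CPM, 2.55-fold above the other injured cells and at 768 CPM in the uninjured cells. Thrsp, a regulator of lipid synthesis, was 4.37-fold and Clec4a2, a C-type lectin gene, 3.28-fold higher than in the other injured cells, and both were under 2-fold from the uninjured cells. Ms4a7, a macrophage membrane protein gene, and the scavenger receptor gene Msr1 had 2 UMIs each in the 113 cells, with log2 ratios to the other injured cells of −4.10 (−7.16 to −2.23) and −3.86 (−6.91 to −1.99). Vsir, for the checkpoint receptor VISTA, was 2.37-fold and Hes1, a Notch target gene, 2.93-fold lower than in the uninjured cells.

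The P2ry12-high injured cells were not uniform. Among 914 genes with a mean of at least 0.2 UMIs in the 111 cells thinned to 1500 UMIs, the median ratio of variance to mean was 1.08, where counting alone gives a value near 1, and 43 genes exceeded 2. Apoe had the highest ratio at 30.5, followed by Actb (15.6), Cst3 (12.02), Ccl4 (11.2), Ccl5 (7.94), Ccl3 (7.03), the nuclear RNA Malat1 (6.996) and Ctsd (6.37). In the uninjured P2ry12-high cells the ratio was 26.9 for Apoe, 13.8 for Actb and 12.5 for Cst3, near the values above. It was 2.30 for Ccl5 and 3.73 for Ctsd there. In the other injured cells each of the genes named here had a higher ratio than in the P2ry12-high injured cells. Examples are 62.0 for Apoe, 21.8 for Cst3, 16.1 for Ccl5 and 11.4 for Ctsd. A spread among cells was thus not particular to the P2ry12-high injured cells. Ratios depend on the mean, which differs between the groups for Apoe, Cst3 and Ccl5.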

How the data were processed

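Single-cell RNA was counted in 2 libraries of sorted tdTomato-positive mouse spinal cord cells, 1 uninjured and 1 injured (705 and 580 barcodes of 2500 sorted cells each, per the labels). The deposited values are UMI counts for 27998 genes. Cell Ranger 2.0.1, STAR, Seurat 2.1.0 and the build GRCm38.p5 (mm10) are named in the submitters' processing notes. How each was applied, the annotation and any filter on barcodes: not given in the sources used here. Scatter gates removed doublets, per the labels' protocols, and no doublet caller or clustering was run here. Barcodes needed at least 200 genes, which removed 0, and at most 10% mitochondrial UMIs, which removed 3 injured and 10 uninjured. The deposited counts were summed by group with no other normalization than CPM. Ratios have exact 95% intervals of a ratio of 2 Poisson counts, CPM exact Poisson and shares Clopper-Pearson intervals. A gene at 0 UMIs was set to a floor of 3 counts over the group, which is 7.52 CPM in the P2ry12-high injured cells. PCR duplicates are removed by UMIs, but cells of 1 library share their source.

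The scripts, tested on simulated data, used Python 3.11.15, numpy 2.4.6, scipy 1.17.1 and pandas 2.3.3. edgeR 4.0.16 and DESeq2 1.42.0 in R 4.3.3 were used for scaling factors only. Genes named are those with at least 50 UMIs in 1 group, ranked by the interval bound nearest 0 (12 each way per comparison, without mt-, Rpl, Rps and haemoglobin genes and names in Rik or Gm), up to 4 per gene list and comparison, the 8 most variable genes and a fixed set, and Isg15 and Mt2 were added after their values were seen. The 22 gene lists and 17 marker lists, like the cells themselves, were chosen with earlier results of these data known. Lists are described by counts and medians only. Gene positions are from GENCODE M21. Some genes of the lists are not reported here, and tdTomato and Itgam were not analysed here. Alternatives were other thresholds for P2ry12, Spp1 and mitochondrial UMIs, depth, thinning, scaling, the minimum for a measured gene, means over cells and cells split by sex-linked UMIs.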

Additional observations from a re-analysis of the deposited data

How the results depend on the processing

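All values compare cells of 1 library with cells of the same or 1 other library, and leaving out a library leaves no comparison. No paired analysis was possible because each state had 1 library. The number of P2ry12-high injured cells follows its threshold, being 215 (37.3%) at 0.1% and 40 (6.93%) at 0.3%, and the share was 23.3% with thresholds on thinned cells. Against the other injured cells (149 higher and 232 lower), 315 genes were higher at 0.1%, and 72 were higher and 153 lower at 0.3%. With TMM 73, with DESeq2 size factors 76 and with means over cells 96 were higher, the first 2 because of the shift of every ratio. Thinning every cell gave 48 and 108, a minimum of 5 expected UMIs 323 and 441, of 30 expected UMIs 42 and 90, Y-linked UMIs alone 52 and 108, and Xist UMIs alone, chosen after seeing the data, 64 and 150. Against the uninjured cells (111 and 240) the counts were 176 and 427 at 0.1%, 41 and 84 at 0.3%, 58 and 128 thinned, 227 and 584 with 5 and 39 and 51 with 30 expected UMIs, and 44 and 91 with Y-linked UMIs alone. The thresholds, thinning, expected-UMI minimums and strata change the cells, UMIs or genes measured; the cause of the change with means over cells was not tested. Lists with a median of at least 0.5 either way against uninjured cells numbered 2, and 5 with 5 expected UMIs, 4 with 30 and 4 with Y-linked UMIs alone. The G2 and M phase median against the other injured cells was −1.85 and turned to 0.13 in thinned cells, where fewer genes are measured. The medians of the homeostatic, damage-associated, lipid, interferon and early response lists kept their direction in every alternative of both comparisons, and that of glycolysis against the other injured cells did so, while against uninjured cells it was between −0.06 and 0.38. Of the other comparisons of an alternative with its main value, 5315 moved by less than the counting interval and 454 by more. A comparison with other injured cells above the P2ry12 threshold was not run, since 1 such cell exists. Genes under 3 UMIs in the 113 cells cannot be told from 0 at this depth.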

Other observations

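Oligodendrocyte transcripts were detected at low level in every group. The sum of 9 oligodendrocyte markers was 160 CPM in the P2ry12-high injured cells, 120 CPM in the other injured cells and 231 CPM in the uninjured P2ry12-high cells, and 0 of the 113 cells had UMIs of 3 or more of them. Mag, a myelin membrane protein gene, had 17 UMIs in 15 of the 113 cells (42.6 CPM, 13.4 CPM in the other injured and 51.1 CPM in the uninjured cells).

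Upk1b, for a tetraspanin listed among homeostatic genes, had 7 UMIs in 7 of the 113 cells and 2 UMIs in the other 464 injured cells, against 58 UMIs in the 514 uninjured P2ry12-high cells. Its count was too low for it to be measured against the other injured cells. Rmi2, for a DNA repair protein, had 3 UMIs in 2 of the 113 cells and was at 80.4 CPM in the uninjured P2ry12-high cells, a log2 ratio of −3.42 (−5.72 to −1.84), and at 12.2 CPM in the other injured cells. Tubb6, a beta-tubulin gene, was at 153 CPM in the P2ry12-high injured cells, 113 CPM in other injured cells and 43.8 CPM in uninjured cells.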
